A study of Mus musculus with 30 samples.

Results

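Foxp3, Izumo1r and Gpr83 are 3 genes known for their transcription in regulatory T cells, and they were followed here across 10 groups of mouse CD8+ T cells. They are 3 of the 19938 genes with a named row on the arrays, and each has 1 row. They were chosen by their array values at 96 h, which were higher in naive cells cultured alone than in naive cells cultured with memory cells, so every comparison that uses either of those groups is given as a description, with no test. The study asked how memory CD8+ T cells alter the differentiation of naive CD8+ T cells that are activated beside them.

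All cells were Pmel-1 transgenic CD8+ T cells, which carry 1 T cell receptor, from spleens of adult C57BL/6 mice aged 6 to 12 weeks and labelled female. TMem cells were memory cells differentiated in vitro from mice with the Ly5.2 marker, and TN cells were naive cells with the Ly5.1 marker; cells were sorted by flow cytometry before RNA was taken. The groups with both cell types in the culture were TMem mix and TN mix at 18 h and 96 h. The groups with 1 cell type were TMem alone and TN alone at 0 h, 18 h and 96 h. At 18 h and 96 h the cells had been stimulated through CD3 and CD28 in the presence of IL-2, and at 0 h they were unstimulated. Each group had 3 arrays, described by the submitters as biological repeats. Values are on the log2 scale of the deposited table, a difference of 1 is a doubling, and errors are SD over 3 arrays unless an SE is named.

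Foxp3 is a forkhead transcription factor that sets and maintains the identity of regulatory T cells, a suppressive lineage that is mostly CD4+. Izumo1r, earlier called Folr4 or Juno, is a surface protein of the folate receptor family that is used in mice as a marker of regulatory T cells, and on the mouse egg it binds the sperm protein Izumo1. Gpr83 is a G protein-coupled receptor with transcripts in brain and in regulatory T cells. Foxp3 can also be transcribed in activated CD8+ T cells.

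Several transcripts bear on how the groups can be compared. The mean of 3 Y-linked genes (Eif2s3y, Uty and Kdm5d) was 8.34 to 9.02 over all TMem arrays, against 4.45 to 4.90 in TN alone at 0 h, 7.49 to 7.56 in TN mix at 18 h, 7.50 to 7.61 in TN alone at 18 h, 7.12 to 7.47 in TN mix at 96 h and 4.58 to 4.73 in TN alone at 96 h. Xist, the transcript of the inactive X chromosome (added after its values were seen), was 4.99 to 6.02 in TMem arrays and 9.34 to 12.1 in TN arrays. The sex-linked transcripts therefore went against the female labels of TMem, and the Y-linked genes also against those of TN mix and TN alone at 18 h and TN mix at 96 h. The Y-linked genes differed between TN mix and TN alone at 96 h, between TN alone at 18 h and at either other time, and between TMem and TN, and 1 of 3 was called lower in TN mix at 96 h against 18 h and in TMem alone at 18 h and at 96 h against 0 h. In all those comparisons the origin of the cells and the condition cannot be told apart. TN mix and TN alone at 18 h overlapped in the Y-linked genes, and limma called 0 of 3 between them, with 0 of 3 at an unadjusted p under 0.05; Xist was 10.95 to 11.02 in TN mix and 11.18 to 11.34 in TN alone (-0.29, adjusted p = 0.533). The CD8 T cell list was high in all groups, with Cd8a at 11.2 to 12.6, and Cd4, the defining marker of the CD4 lineage, lay between 5.94 and 6.86 on all 30 arrays and was called in none of 16 comparisons. In the list of 3 CD4 T cell genes, 1 other than Cd4 was called higher in TMem than in TN at 18 h and 96 h, by up to 1.27. A gene other than Cd4 was also called higher in TMem alone at 96 h against 0 h (up to 0.67) and in TN mix at 96 h against 18 h (up to 0.78). One library stood apart: replicate 3 of TMem alone at 0 h had Foxp3 at 8.62 beside 6.88 and 7.21, and Itgae, an integrin chain, at 10.82 in a group of 9.54 ± 1.11. Replicate 1 of TN alone at 0 h was low in Gpr83 (7.22 beside 8.14 and 8.23) and in Xist (9.34 beside 10.86 and 10.99). Foxp3 results that rest on the former library, and Gpr83 results that rest on the latter, are also given without it or over single arrays left out. The limma SE and intervals of Foxp3 share 1 spread that includes the former library. They are therefore wide also where that library is in neither group. Marker and list results at 0 h are given only with all arrays.

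**Figure D1:**
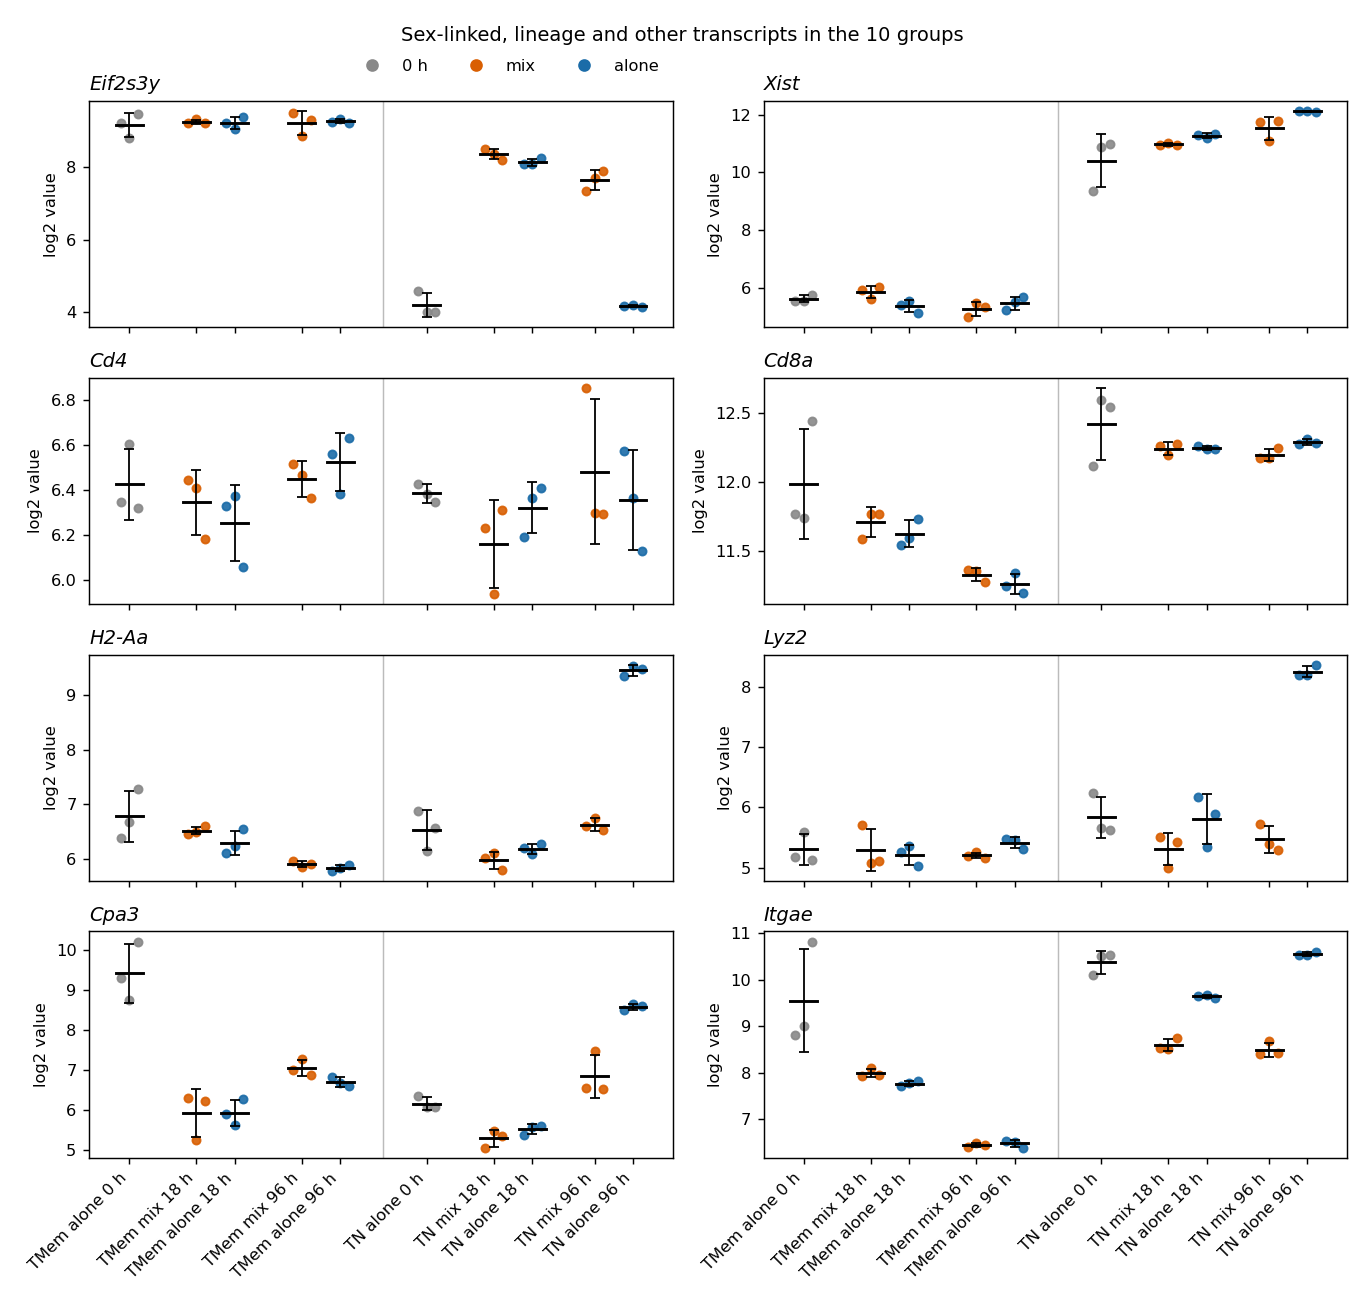
The log2 value of 8 transcripts (Eif2s3y, Xist, Cd4, Cd8a, H2-Aa, Lyz2, Cpa3 and Itgae) in each group, 1 point per array with the group mean as a bar and the SD as the error bar, TMem groups left of TN groups and mix left of alone. Cd4 stays between 5.94 and 6.86 everywhere, while H2-Aa and Lyz2 stand highest in TN alone at 96 h among the TN groups.

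Gpr83 (gene 14608, probe set 10583286) and Izumo1r (gene 64931, probe set 10590974) lie on mouse chromosome 9, and Foxp3 (gene 20371, probe set 10598292) lies on the X chromosome. In the RefSeq gene table of GRCm38.p6, Gpr83 and Izumo1r are neighbouring protein-coding genes. Their promoters and those of Foxp3 are shown because each of these neighbours was the gene most like the other over all 30 arrays. Foxp3 was less like them over the 30 arrays, though not within every subset of arrays. All 3 genes matched RefSeq, Foxp3 with 2 starts. Each sequence covers 250 bases before to 50 bases after a start in GRCm38.p6, 5′ to 3′ on the gene's strand: Gpr83 at chr9:14859960-14860259 (plus strand), Izumo1r at chr9:14903718-14904017 (minus strand), and Foxp3 at chrX:7579426-7579725 and chrX:7580233-7580532 (plus strand). Capitals mark the motif matches described after them.
Gpr83: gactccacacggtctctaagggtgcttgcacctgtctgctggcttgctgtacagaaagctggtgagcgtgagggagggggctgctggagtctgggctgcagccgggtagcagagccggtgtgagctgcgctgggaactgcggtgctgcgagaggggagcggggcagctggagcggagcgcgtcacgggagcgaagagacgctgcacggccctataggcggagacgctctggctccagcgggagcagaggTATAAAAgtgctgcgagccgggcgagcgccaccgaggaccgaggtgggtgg
Izumo1r: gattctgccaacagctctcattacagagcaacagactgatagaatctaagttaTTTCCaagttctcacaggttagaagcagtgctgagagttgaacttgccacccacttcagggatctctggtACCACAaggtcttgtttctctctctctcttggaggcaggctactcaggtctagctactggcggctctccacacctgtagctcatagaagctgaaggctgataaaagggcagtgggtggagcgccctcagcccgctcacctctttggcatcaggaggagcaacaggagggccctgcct
Foxp3, first start: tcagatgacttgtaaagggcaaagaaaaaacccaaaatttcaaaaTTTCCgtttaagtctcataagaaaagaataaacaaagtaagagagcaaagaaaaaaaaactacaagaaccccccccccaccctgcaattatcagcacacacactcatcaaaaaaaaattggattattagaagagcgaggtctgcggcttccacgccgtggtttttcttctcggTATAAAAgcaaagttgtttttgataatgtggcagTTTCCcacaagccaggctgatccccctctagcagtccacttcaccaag
Foxp3, second start: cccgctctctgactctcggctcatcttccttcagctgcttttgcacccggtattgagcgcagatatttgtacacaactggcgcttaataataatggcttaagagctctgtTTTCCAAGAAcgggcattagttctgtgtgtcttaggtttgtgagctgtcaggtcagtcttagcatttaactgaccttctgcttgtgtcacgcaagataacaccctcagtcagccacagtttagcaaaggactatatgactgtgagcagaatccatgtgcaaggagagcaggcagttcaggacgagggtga

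The neighbours had unlike promoters. The Gpr83 window was 67% G or C with 24 CG pairs, and the Izumo1r window 52.3% with 3 CG pairs. The Foxp3 windows were 40.7% and 47.7%, with 6 and 8 CG pairs, beside medians of 52.7% and 7 over 32851 RefSeq promoters of the same length. The windows were searched on both strands for a TATA box (TATAAAA), a STAT5 site (TTCNNNGAA), a RUNX core (TGTGGT), an NFAT core (GGAAA), a forkhead site (TGTTTAC) and an AP-1 site (TGANTCA), since factors of these families are known to act on T cell genes. Positions count the start as +1 and the base before it as -1. TATAAAA began at -1 in Gpr83 and at -32 of the first Foxp3 start, and 5.48% of all promoters held it. The STAT5 letters occurred at -139 of the second Foxp3 start (8.3% of all promoters) and overlapped an NFAT core at -140. The RUNX letters occurred at -127 of Izumo1r (16.8%). The NFAT core, which 61.3% of promoters held, also occurred at -197 of Izumo1r and at -205 and +3 of the first Foxp3 start. The forkhead and AP-1 letters, held by 3.65% and 7.81% of promoters, were in none of the 4 windows.

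Each member was lower in naive cells cultured with memory cells for 96 h than in naive cells cultured alone, which is the pattern that chose them. Foxp3 was 7.40, 7.22 and 7.28 in TN mix at 96 h, against 8.83, 8.74 and 8.79 in TN alone. Izumo1r was 7.41, 7.41 and 6.93 in TN mix, against 8.41, 8.58 and 8.48 in TN alone. Gpr83 was 6.27, 6.21 and 6.18 in TN mix, against 8.43, 8.85 and 8.85 in TN alone. No TN mix array reached the lowest TN alone array for any of the 3 genes. The ranges did not overlap for 27.8% of all genes in this comparison, and 3.62% of all genes were called lower (10.6% called in either direction, at an adjusted p under 0.05 in limma), from which nothing is read about the members.

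The difference was largest for Gpr83 among the 3, at -2.49 (SE 0.17, 5.63-fold lower). Foxp3 differed by -1.49 (SE 0.22, 2.81-fold lower) and Izumo1r by -1.24 (SE 0.12, 2.37-fold lower). TMem alone at 96 h gives a scale for these values. TN mix covered 90.3% of the distance between TN alone and TMem alone for Gpr83, 67% for Foxp3 and 56.7% for Izumo1r. Gpr83 in TN mix, at 6.18 to 6.27, lay above all TMem arrays at 96 h, the highest of which was 6.17, and within the range of the TMem arrays at 0 h and 18 h (6.04 to 6.46). Its mean was 0.24 above the lower quartile of all genes on the same arrays, and that of TMem alone at 96 h 0.05 above it, so the Gpr83 fold and distance are set against values at the low end of the arrays, where the scale is compressed.

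**Figure D2:**
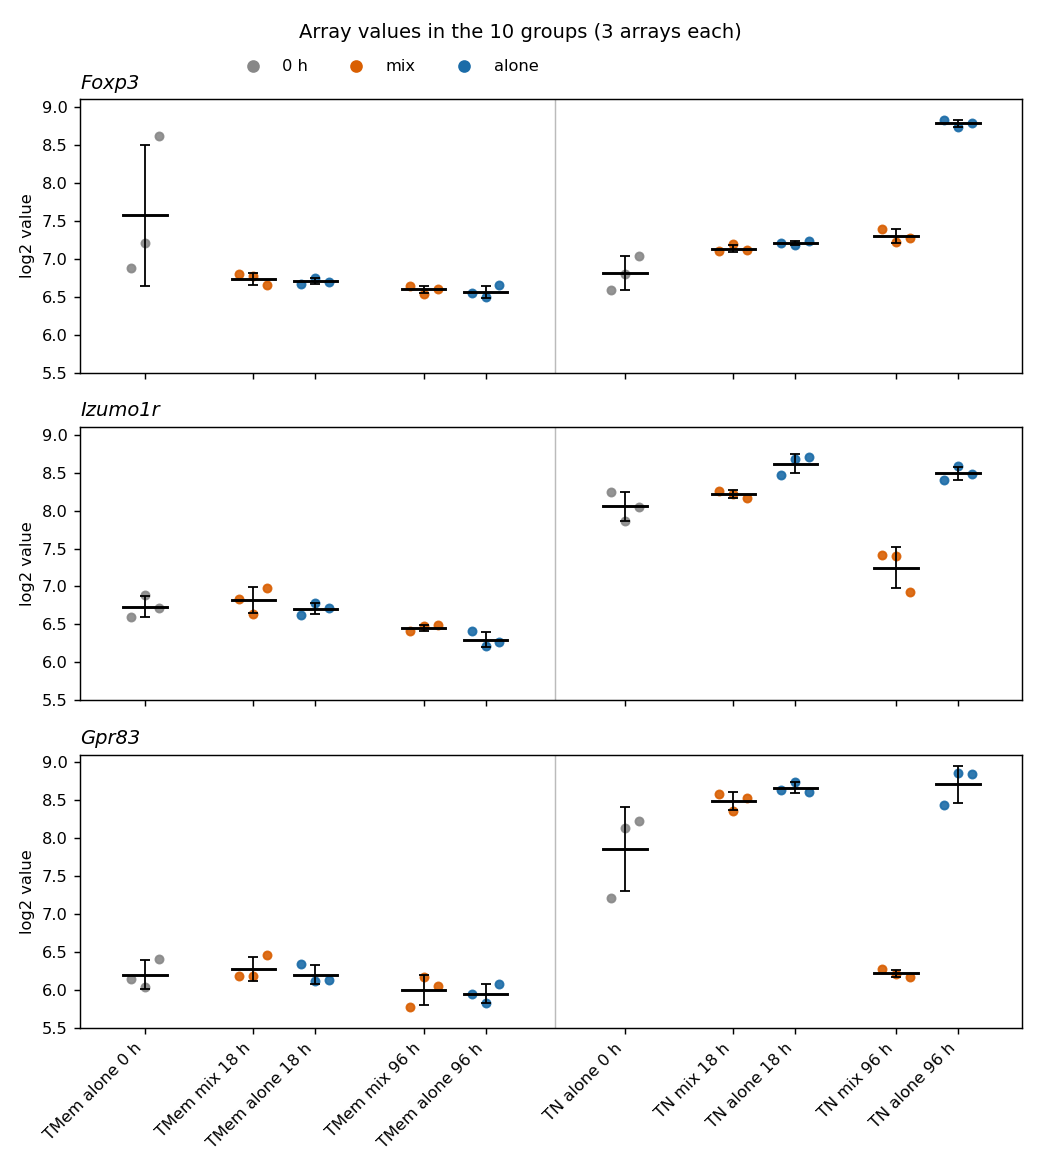
The log2 value of Foxp3, Izumo1r and Gpr83 in each of the 10 groups, 1 point per array with the group mean as a bar and the SD over 3 arrays as the error bar, TMem groups left of TN groups and mix left of alone. Gpr83 and Izumo1r are high in TN groups other than TN mix at 96 h, whereas Foxp3 is highest in TN alone at 96 h and on 1 TMem array at 0 h.

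Transcripts of other cell types differed between the same arrays, where 3.62% of all genes were called lower in TN mix. The mean of the MHC class II list was 7.25 to 7.36 in TN mix at 96 h and 8.68 to 8.76 in TN alone, and 4 of 5 members were called lower, H2-Aa by the most (-2.83). The list of macrophages, monocytes and dendritic cells was 6.40 to 6.64 in TN mix and 7.21 to 7.24 in TN alone, with 3 of 9 lower, among them Lyz2, a lysozyme of myeloid cells (-2.79). The mast cell and basophil list was 5.94 to 6.13 in TN mix and 6.78 to 7.01 in TN alone, with 4 of 6 lower, among them the mast cell carboxypeptidase Cpa3 (-1.73). The NK cell list was 5.25 to 5.38 in TN mix and 5.97 to 6.04 in TN alone, with 2 of 5 lower. The macrophage, monocyte and dendritic cell list was also high in TMem at 96 h, at 7.14 to 7.20 in TMem alone and 7.11 to 7.16 in TMem mix. Foxp3 had its lowest group means there, at 6.57 and 6.60. The other lists named so far were lower in TMem alone at 96 h than in TN alone, with MHC class II at 6.58 to 6.68, mast cells and basophils at 5.99 to 6.05 and NK cells at 5.60 to 5.70. The B cell list was 6.21 to 6.35 in TN mix and 6.23 to 6.27 in TN alone, with 1 of 7 lower. The CD4 T cell list was 6.16 to 6.34 in TN mix and 5.98 to 6.16 in TN alone, and limma called 0 of 3 (1 of 3 at an unadjusted p under 0.05). The part of these cells, and of the sex-linked transcripts, in the lower members was not tested. In bulk RNA, fewer cells of a type and less RNA per cell cannot be told apart.

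At 18 h, when the members had not been used to choose them, 1 of 3 was called between TN mix and TN alone, where 14.4% of all genes were called (8.15% lower). Izumo1r was 8.26, 8.22 and 8.16 in TN mix at 18 h, against 8.47, 8.68 and 8.71 in TN alone. All TN mix arrays lay under all TN alone arrays, as was so in 1 direction or the other for 34.1% of genes. Izumo1r fell by 0.40 (log2, SE 0.12, limma adjusted p = 0.0162; 0.00378 to 0.0763 over 17 alternatives). The call was lost without TN alone replicate 2 (-0.37, adjusted p = 0.0763), without TN alone replicate 3 (-0.36, adjusted p = 0.0763) and without TN mix replicate 3 (-0.38, adjusted p = 0.0583).

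The other members did not pass the test at 18 h. Gpr83 was 8.58, 8.36 and 8.53 in TN mix, against 8.64, 8.74 and 8.61 in TN alone, a difference of -0.17 (95% interval -0.53 to 0.18, limma adjusted p = 0.598) with ranges that did not overlap. Foxp3 was 7.10, 7.19 and 7.12 in TN mix, against 7.21, 7.19 and 7.24 in TN alone, with overlapping ranges. The difference was -0.08 (95% interval -0.54 to 0.38, limma adjusted p = 0.892). That interval holds the spread of all groups, whereas the SD was 0.05 in TN mix and 0.02 in TN alone. With single arrays left out, replicate 3 of TMem alone at 0 h among them, it was not called (-0.11 to -0.06, limma adjusted p = 0.676 to 0.925). Few markers of other cell types were called between these groups. Limma called none of the 9 macrophage, monocyte and dendritic cell genes (1 at an unadjusted p under 0.05), and none of the mast cell, NK, B and CD4 T cell genes, of which 0 passed an unadjusted p under 0.05. Of the MHC class II list, 1 of 5 was called, Cd74, which rose by 0.72.

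In memory cells, culture with naive cells changed none of the members past the test, at either time. At 18 h the TMem mix means minus the TMem alone means were 0.03 for Foxp3, 0.12 for Izumo1r and 0.08 for Gpr83, each with a limma adjusted p of 1, where 0.0301% of all genes were called. At 96 h they were 0.03 for Foxp3 (adjusted p = 0.999), 0.16 for Izumo1r (adjusted p = 0.96) and 0.04 for Gpr83 (adjusted p = 0.999), where 1.12% of genes were called. For the 3 members, 0 of 6 differences had an unadjusted p under 0.05. Gpr83 means in these TMem groups were 0.05 to 0.37 above the lower quartile of all genes on the same arrays. Those of Izumo1r were 0.39 to 0.92 above it. Near the low end of the arrays, where the scale is compressed, a fall would be hard to see. The 95% intervals at 96 h ran from -0.43 to 0.49 for Foxp3, from -0.08 to 0.39 for Izumo1r and from -0.31 to 0.40 for Gpr83. The Foxp3 interval holds the spread of replicate 3 of TMem alone at 0 h, whereas its SD was 0.05 in TMem mix and 0.08 in TMem alone. With single arrays left out, that one among them, the Foxp3 difference at 96 h ran from -0.0053 to 0.076.

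The difference between the effect of mixing on TN and its effect on TMem at 18 h was tested directly, and none of the 3 members was called, with 5.17% of genes called. For Izumo1r it was -0.52 (SE 0.16, limma adjusted p = 0.0615; 0.0229 to 0.171 over 23 alternatives, and unadjusted p = 0.00361). It passed without TMem mix replicate 2 (-0.61, adjusted p = 0.0374) and without TN alone replicate 1 (-0.60, adjusted p = 0.0442). For Gpr83 the difference was -0.25 (adjusted p = 0.651), and for Foxp3 -0.11 (adjusted p = 0.898). With single arrays left out, replicate 3 of TMem alone at 0 h among them, Foxp3 was not called (-0.15 to -0.08, limma adjusted p = 0.707 to 0.959).

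Gpr83 and Izumo1r were higher in naive cells alone 18 h after stimulation than at 0 h, and 2 of 3 members were called, with 33.8% of all genes called (17.1% higher). Gpr83 was 8.64, 8.74 and 8.61 at 18 h, against 7.22, 8.14 and 8.23 at 0 h. It rose by 0.80 (SE 0.17, limma adjusted p = 0.000398), or by 0.48 without replicate 1 at 0 h (adjusted p = 0.00547), the lowest array of the TN groups other than TN mix at 96 h. Izumo1r was 8.47, 8.68 and 8.71 at 18 h, against 8.25, 7.86 and 8.05 at 0 h, and rose by 0.57 (SE 0.12, adjusted p = 0.000237). Foxp3 was 7.21, 7.19 and 7.24 at 18 h, against 6.59, 6.81 and 7.04 at 0 h. The difference of 0.40 (SE 0.22) was not called by limma (adjusted p = 0.189; 0.000841 to 0.47 over 17 alternatives), although all 18 h arrays lay above all 0 h arrays, as 42.4% of genes did in 1 direction or the other. Without replicate 3 of TMem alone at 0 h, which is in neither group, its SE was 0.09 and it passed (adjusted p = 0.000841). The Y-linked genes differ between these 2 groups, so the origin of the cells and the time cannot be told apart here.

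From 18 h to 96 h the members parted in naive cells. In TN alone, Foxp3 was 1.57 higher at 96 h than at 18 h, whereas Izumo1r (-0.13) and Gpr83 (0.05) were within 0.2 of their 18 h level; 24.4% of genes were called in this comparison. Markers of other cell types were higher at 96 h than at 18 h beside Foxp3, with 5 of 5 MHC class II genes (list median 2.14), 5 of 6 mast cell and basophil genes (0.68), 4 of 5 NK cell genes (0.70) and 3 of 9 macrophage, monocyte and dendritic cell genes (up to 3.52), beside a median of -0.01 over all genes. Of the B cell list 1 of 7 was higher, and of the CD4 T cell list 0 of 3. Against 0 h the counts were 5 MHC class II, 4 mast cell and basophil, 2 NK cell (with 1 lower) and 4 macrophage, monocyte and dendritic cell genes. The B and CD4 T cell lists had 0 called against 0 h. The part of these cells in the Foxp3 difference was not tested. In TN mix, Gpr83 was 2.27 lower and Izumo1r 0.97 lower at 96 h than at 18 h, whereas Foxp3 was 0.16 higher, where 37.1% of genes were called. Relative to 0 h, TN alone at 96 h was 1.98 higher in Foxp3, 0.85 higher in Gpr83 (0.53 without replicate 1 at 0 h) and 0.44 higher in Izumo1r, where 36.4% of genes were called. The lower Foxp3 of TN mix at 96 h thus stood beside a high value of TN alone, while the lower Gpr83 and Izumo1r stood below the 18 h values of TN mix itself.

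In memory cells alone, Foxp3 fell with stimulation, and 1 of 3 members was called at 18 h against 0 h, where 35.3% of genes were called (17.3% lower). Foxp3 was 6.88, 7.21 and 8.62 in TMem at 0 h, 6.67, 6.75 and 6.70 at 18 h and 6.55, 6.49 and 6.65 at 96 h. It fell by 0.87 at 18 h (SE 0.22, limma adjusted p = 0.00273; 2.64e-05 to 0.0796 over 16 alternatives) and by 1.01 at 96 h (adjusted p = 0.00103; 1.11e-05 to 0.0933 over 16 alternatives). Without replicate 3 at 0 h the differences were -0.34 (adjusted p = 0.0101) and -0.48 (adjusted p = 0.000867), and both stayed called. The calls were lost when only the groups compared entered the fit, at the same differences (adjusted p = 0.0796 at 18 h and 0.0933 at 96 h). Mast cell and basophil transcripts were lower in the same comparisons, 5 of 6 at 18 h and 4 of 6 at 96 h, with Cpa3 by the most (-3.48 and -2.71). The mean of that list was 6.61, 6.54 and 7.13 at 0 h, 5.70 to 5.74 at 18 h and 5.99 to 6.05 at 96 h. At 0 h it was highest on replicate 3, as was Foxp3, but replicates 1 and 2 had the reverse order. The MHC class II list was also highest on replicate 3 (7.11). The macrophage, monocyte and dendritic cell list was lowest there (6.85, 6.98 and 6.42), as were the NK, B and CD4 T cell lists. At 96 h against 0 h, 3 of 9 macrophage, monocyte and dendritic cell genes were higher and 0 lower, and 3 of 5 MHC class II genes were lower. The part of these cells in the Foxp3 differences was not tested.

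Izumo1r in memory cells was 6.60 to 6.89 at 0 h, 6.63 to 6.78 at 18 h and 6.22 to 6.42 at 96 h. It differed by -0.03 at 18 h (limma adjusted p = 0.863) and fell by 0.43 at 96 h (SE 0.12, adjusted p = 0.00531), so that 2 of 3 members were called at 96 h, where 24.5% of genes were called (8.44% lower). Gpr83 did not pass at either time, with 0.00 at 18 h (adjusted p = 0.997) and -0.25 at 96 h (95% interval -0.60 to 0.11, adjusted p = 0.348). Its TMem means were already low at 0 h, at 0.24 above the lower quartile of all genes, so a fall would be hard to see.

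Memory cells had less Izumo1r and Gpr83 than naive cells at every time, tested at 0 h and 18 h. At 0 h all 3 members were called, where 35.9% of genes were called (17.5% lower). Izumo1r was 6.60 to 6.89 in TMem, against 7.86 to 8.25 in TN, and fell by 1.32 in TMem (SE 0.12, limma adjusted p = 2.78e-10). Gpr83 was 6.04 to 6.41 in TMem, against 7.22 to 8.23 in TN, and fell by 1.66 in TMem (SE 0.17, adjusted p = 6.35e-09). With single arrays left out the Gpr83 difference ran from -1.98 to -1.48 and stayed called. Foxp3 was called higher in TMem (0.76, SE 0.22, adjusted p = 0.00783; 9.63e-05 to 0.607 over 16 alternatives), but the ranges overlapped. Without replicate 3 of TMem the difference was 0.23 and not called (adjusted p = 0.0767), and with arrays weighted by their fit it was 0.10 (adjusted p = 0.607). In the same comparison 4 of 6 mast cell and basophil genes were higher in TMem, Cpa3 by the most (3.25), with a list mean of 6.54 to 7.13 in TMem and 5.80 to 6.04 in TN. Of the macrophage, monocyte and dendritic cell list 4 of 9 were higher and 1 lower, by up to 2.69, with a list mean of 6.42 to 6.98 in TMem and 6.23 to 6.37 in TN. The part of these cells in the Foxp3 difference was not tested.

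At 18 h the cell types differed further. In the alone groups 2 of 3 members were called, where 28.9% of genes were called (13.5% lower): TMem minus TN was -2.46 for Gpr83 (limma adjusted p = 2.5e-12) and -1.91 for Izumo1r (adjusted p = 1.24e-13). In the mix groups 2 of 3 were called, where 20.4% of genes were called (8.64% lower), with -2.21 for Gpr83 (adjusted p = 4.42e-11) and -1.39 for Izumo1r (adjusted p = 1.83e-10). Foxp3 was -0.51 in the alone groups (adjusted p = 0.097; 6.76e-05 to 0.183 over 17 alternatives) and -0.40 in the mix groups (adjusted p = 0.243; 0.00164 to 0.44 over 17 alternatives), neither of which was called. Both passed when replicate 3 of TMem alone at 0 h was left out of the fit (adjusted p = 6.76e-05 and 0.00164), although that array is in neither comparison.

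At 96 h, as a description, TMem alone minus TN alone was -2.76 for Gpr83, -2.22 for Foxp3 and -2.19 for Izumo1r, where 22.2% of genes were called. TMem mix minus TN mix was -0.79 for Izumo1r, -0.70 for Foxp3 and -0.22 for Gpr83, where 10.6% of genes were called. The distance between the cell types was smaller in the mix groups for each of the 3 members.

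**Figure D3:**
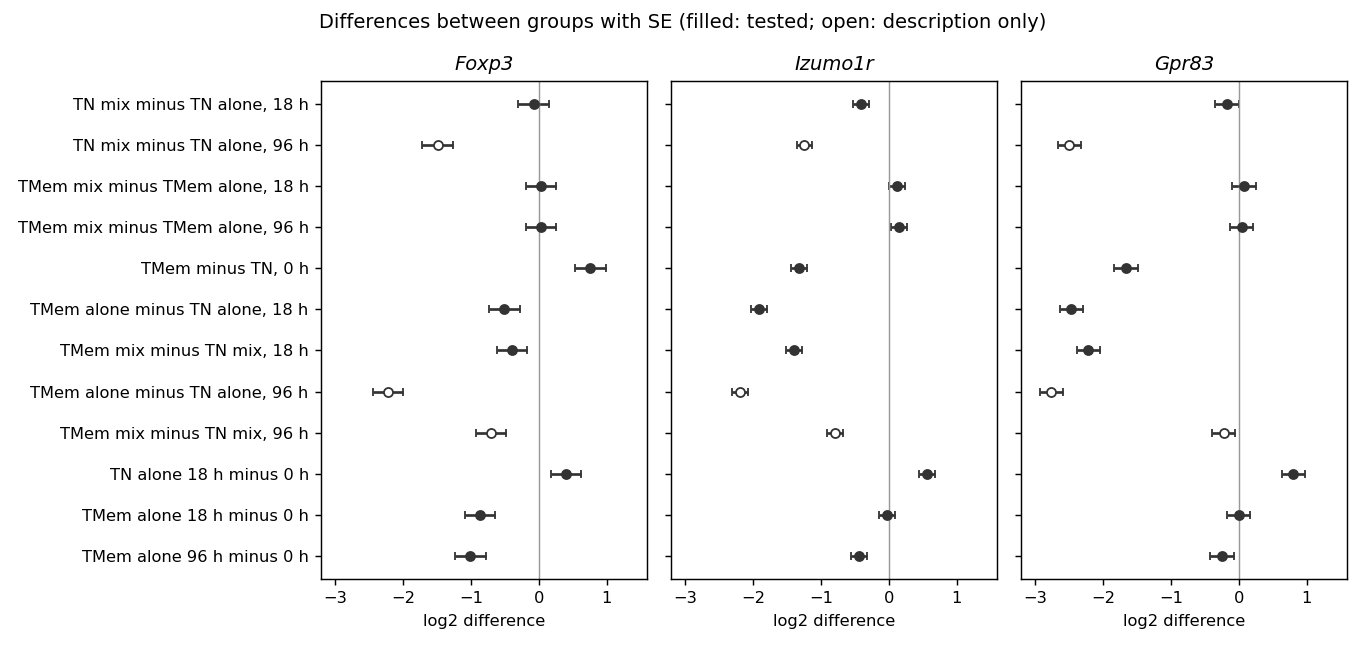
Differences between group means (log2, with the SE of the limma fit as the error bar) for the 3 members in 12 comparisons, the first-named group minus the second, with filled points where the difference was tested and open points where it is a description. The Gpr83 difference of -2.49 between TN mix and TN alone at 96 h stands far from that of -0.17 at 18 h, and the memory cell differences with mixing lie near 0.

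The order of the groups differed between the members. For Foxp3, TN alone at 96 h (8.79 ± 0.04) was first by 1.22, and its range did not overlap that of the next group. The next groups, TMem at 0 h (7.57 ± 0.93), TN mix at 96 h (7.30 ± 0.09), TN alone at 18 h (7.21 ± 0.02) and TN mix at 18 h (7.14 ± 0.05), each overlapped its neighbour. Below them, apart from TN mix at 18 h, came TN at 0 h (6.81 ± 0.23), TMem mix at 18 h (6.74 ± 0.08) and TMem alone at 18 h (6.71 ± 0.04), which overlapped in turn, and last TMem mix at 96 h (6.60 ± 0.05) and TMem alone at 96 h (6.57 ± 0.08), which overlapped each other.

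For Izumo1r, TN alone at 18 h (8.62 ± 0.13) and TN alone at 96 h (8.49 ± 0.09) overlapped at the top. TN mix at 18 h (8.22 ± 0.05) and TN at 0 h (8.05 ± 0.19) overlapped below them. A gap of 0.81 separated TN at 0 h from TN mix at 96 h (7.25 ± 0.27), which overlapped with TMem mix at 18 h (6.82 ± 0.17). TMem at 0 h (6.74 ± 0.14) and TMem alone at 18 h (6.71 ± 0.07) followed with overlap, and TMem mix at 96 h (6.46 ± 0.04) and TMem alone at 96 h (6.30 ± 0.10) were last.

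For Gpr83, TN alone at 96 h (8.71 ± 0.24) and TN alone at 18 h (8.66 ± 0.07) overlapped, and TN mix at 18 h (8.49 ± 0.11) and TN at 0 h (7.86 ± 0.56) each stood apart from their neighbours. A gap of 1.58 followed. The remaining 6 groups, all TMem groups and TN mix at 96 h, lay between 5.95 and 6.28 in their means, and each overlapped its neighbour.

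Izumo1r and Gpr83 followed each other closely over the arrays. Their Pearson correlation was 0.947 over 30 arrays, and each was the gene most like the other among 19937 genes. The 30 include the TN arrays at 96 h on which both were chosen, so part of this likeness follows from the choice. In Gpr83 the arrays fell into a high cluster of TN arrays and a low cluster of TMem arrays and TN mix at 96 h. In Izumo1r, TN mix at 96 h was intermediate, at 6.93 to 7.41. TMem arrays reached up to 6.98 in Izumo1r, and the other TN arrays began at 7.86. Much of the correlation lies between the high and the low arrays. Within the 15 TMem arrays, where Gpr83 lies at the low end of the arrays, the correlation was 0.656. Within the 15 TN arrays it was 0.898, and within the 12 TN arrays other than TN mix at 96 h 0.522. Over 30 arrays Foxp3 was less like either of them, with 0.52 to Izumo1r and 0.522 to Gpr83. The Spearman values were 0.697 and 0.631, beside 0.913 for Izumo1r and Gpr83. Without the arrays of TN alone at 96 h the Pearson values of Foxp3 were 0.313 and 0.27. Within the 15 TN arrays they were 0.292 and 0.318, and within the 15 TMem arrays 0.329 and 0.438. Within the 12 TN arrays other than TN mix at 96 h they were 0.449 and 0.558, so there Foxp3 did not stand apart from the pair. These values describe arrays that share groups, and they carry no test.

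**Figure D4:**
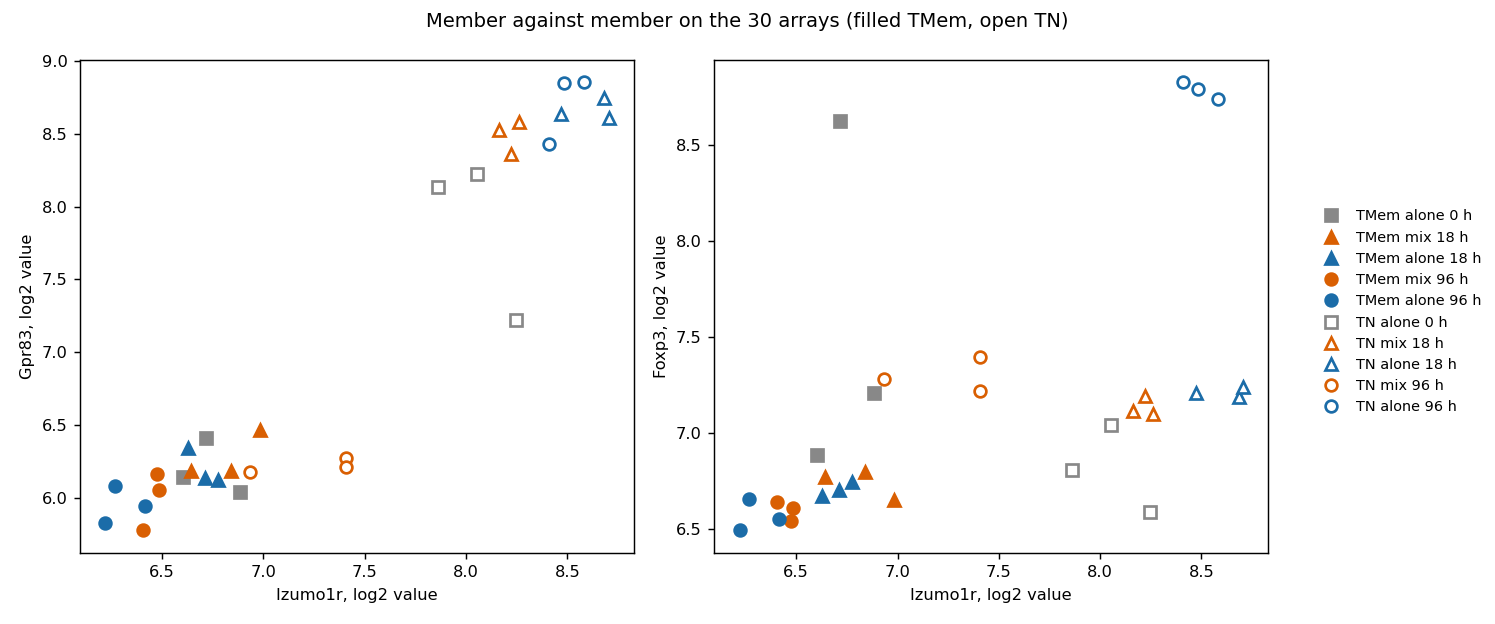
Gpr83 (left) and Foxp3 (right) against Izumo1r, all as log2 values, 1 point per array, filled for TMem and open for TN, with shapes for time and colours for culture. In Gpr83 all TMem arrays and TN mix at 96 h are low and the other TN arrays are high. On the Izumo1r axis TN mix at 96 h (6.93 to 7.41) is intermediate. TN alone at 96 h and 1 TMem array at 0 h stand high in Foxp3.

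The 8 genes most like each member by Pearson correlation over the 30 arrays were taken as a description. For Foxp3 they were Pde5a (0.963), Zdhhc14 (0.889), Btk (0.878), H2-Aa (0.874), Kit (0.871), Clec4e (0.861), Gprin3 (0.854) and Cybb (0.85). Pde5a is a phosphodiesterase of cyclic GMP, Btk a kinase of B and myeloid cells, and Kit the stem cell factor receptor. For Izumo1r they were Tnfrsf25 (0.946), Ifit3 (0.917), Tox (0.914), Tle1 (0.905), Oas2 (0.905), Plcb4 (0.894), Id3 (0.892) and Oasl2 (0.887). Tnfrsf25 is the death receptor for TL1A, Tox a nuclear factor of T cell development, and Ifit3, Oas2 and Oasl2 are interferon-induced. For Gpr83 they were Tnfrsf25 (0.921), Baz2b (0.908), Shfl (0.904), Plcb4 (0.896), Tle1 (0.89), Kcna2 (0.874), Gria3 (0.872) and Oas2 (0.872). Izumo1r and Gpr83 shared Tnfrsf25, Plcb4, Tle1 and Oas2, and neither shared a gene with Foxp3. Without the arrays of TN alone at 96 h, 2 of 8 stayed for Foxp3, 2 for Izumo1r and 1 for Gpr83.

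Values of these genes in TN mix minus TN alone are a description too, since the genes were chosen on the same arrays. Gria3, a glutamate receptor subunit, was at -1.27 at 18 h and -2.26 at 96 h, Tnfrsf25 at -0.26 and -0.67, and Tox at -0.77 and -0.30. Gria3 and Tnfrsf25 thus differed more at 96 h, and Tox more at 18 h. Kcna2, a potassium channel, was at -0.49 at 18 h. At 96 h H2-Aa, which codes for an MHC class II chain of antigen-presenting cells, was at -2.83 and Pde5a at -0.81.

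Other genes known from regulatory T cells were read from a list of 30, of which 28 were measured, and they did not move as 1 group with the members. In TN mix at 96 h, relative to TN alone, 6 of 28 rose and 9 fell, where 7% and 3.62% of all genes did, and the list's median difference was -0.02 beside 0.05 over all genes. Among those that fell were Itgae, an integrin chain of tissue-resident T cells (-2.06), the chemokine receptor Ccr4 (-1.70), Ikzf2, the transcription factor Helios (-1.02), and Nt5e, the ectoenzyme CD73 (-0.76). Entpd1, the ectoenzyme CD39 (1.24), and Il10, a suppressive cytokine (1.02), rose. The count of called genes ranged from 13 to 18 over 17 alternatives, and the 6 named kept their direction and their call in each that gave them a value.

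Ikzf2 was 7.90, 7.96 and 8.16 in TN mix at 96 h, against 8.92, 9.11 and 9.06 in TN alone. Like Foxp3 in naive cells, it had its highest TN group mean in TN alone at 96 h. Ctla4, an inhibitory receptor, was 10.21 ± 0.25 in TN mix at 96 h and 9.94 ± 0.10 in TN alone, and Il2ra, the alpha chain of the IL-2 receptor, was 12.68 ± 0.04 in TN mix and 12.61 ± 0.03 in TN alone. Tnfrsf18, the receptor GITR, was 10.47 ± 0.09 in TN mix and 10.92 ± 0.05 in TN alone. Il2ra was 8.04 ± 0.11 in TN at 0 h and between 12.46 and 12.87 in the means of the other 9 groups.

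Of the 28, 4 rose and 5 fell in TN mix relative to TN alone at 18 h, where 6.3% and 8.15% of genes did, with a median of 0.11 beside -0.01 over all genes. Nt5e (-0.99, limma adjusted p = 1.86e-08) and Socs2, an inhibitor of cytokine signalling (-0.74), fell, and the chemokine receptor Ccr8 (0.94) and Tnfrsf18 (0.49) rose. Nt5e thus fell at both times, while Tnfrsf18 was higher in TN mix at 18 h and lower at 96 h. In TMem mix against TMem alone, limma called 0 of 28 at 18 h, with 5 of 28 at an unadjusted p under 0.05. At 96 h, 5 of 28 rose and none fell, where 0.968% of all genes rose, with a median of 0.14 beside -0.01. Ctla4 rose by 1.44 (adjusted p = 3.84e-07), Lag3, an inhibitory receptor, by 0.48, Tnfrsf18 by 0.45 and Icos, a costimulatory receptor, by 0.39. That count was 3 without TMem alone replicate 1, which ended the call of Icos, and 2 to 7 over all alternatives.

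**Figure D5:**
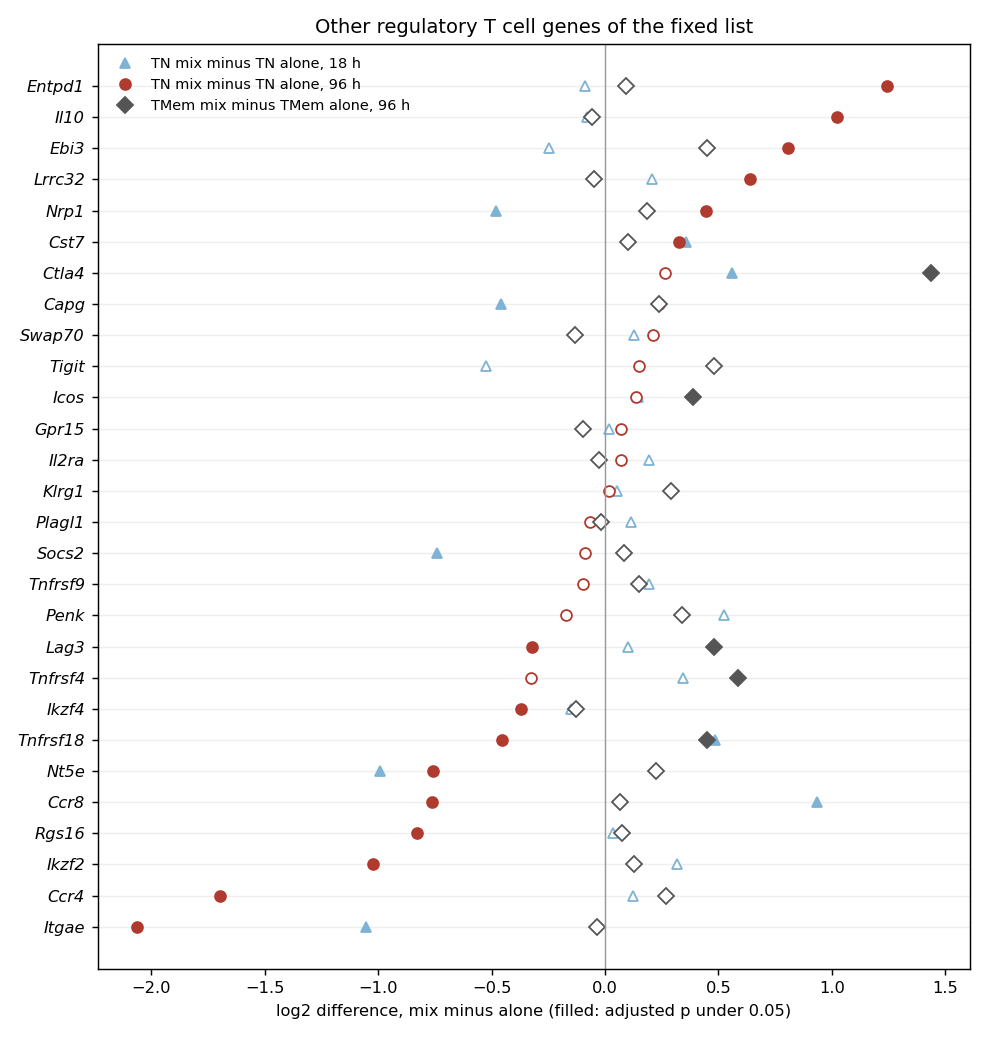
Differences (log2, mix minus alone) of 28 other regulatory T cell genes in TN at 18 h, TN at 96 h and TMem at 96 h, filled where the adjusted p was under 0.05. In TN at 96 h 6 genes are called higher and 9 lower, in TN at 18 h 4 and 5, and in TMem at 96 h 5 and 0.

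With stimulation of TN alone, 17 of the 28 rose and 4 fell at 18 h against 0 h, where 17.1% and 16.7% of genes did. Rgs16, a regulator of G protein signalling (4.52), Il2ra (4.49), Tnfrsf9, the receptor 4-1BB (3.69), and Lag3 (2.35) rose. At 0 h, 19 of 28 were higher in TMem than in TN and 2 lower, where 18.4% and 17.5% of genes were. Il2ra (4.42), Socs2 (3.98), Entpd1 (3.05) and Capg, an actin-capping protein (1.77), were higher, the reverse of Izumo1r and Gpr83 in the same comparison.

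Regulators of the Foxp3 gene were read from another list of 30, with 28 measured. In TN mix at 18 h, 2 rose and 11 fell, where 6.3% and 8.15% of all genes did, with a median of -0.10 beside -0.01 over all genes, whereas Foxp3 itself was not called. Tet3, an enzyme that oxidises methylated cytosine (-1.10, limma adjusted p = 4.57e-08), the calcium-dependent factors Nfatc2 (-0.67) and Nfatc1 (-0.60), and Tgfbr2, a receptor of TGF-beta (-0.61), fell. The count of 13 ranged from 11 to 14 over 17 alternatives. At 96 h, 2 rose and 6 fell, where 7% and 3.62% of all genes did, with a median of -0.03 beside 0.05. The orphan nuclear receptors Nr4a3 (-1.42) and Nr4a1 (-1.03), which follow T cell receptor signals, fell, as did Socs1 (-0.48) and Bcl11b (-0.34). The TGF-beta signal transducer Smad3 (0.69) and the chromatin organiser Satb1 (0.63) rose. In TMem mix at 18 h limma called 0 of 28 (2 at an unadjusted p under 0.05), where 0.0301% of all genes were called, and at 96 h Bach2 (0.47) and Foxo3 (0.31) rose and none fell, where 0.968% of all genes rose. Leaving out 1 array ended the Foxo3 call for each of the 6 arrays compared, and the Bach2 call for replicates 1 and 3 of either group (adjusted p up to 0.227 for Foxo3 and 0.277 for Bach2 over all alternatives).

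Of 10 relatives and ligands of the members, all 10 measured, 1 was called in TN mix against TN alone at each time. Of all genes, 14.4% were called at 18 h (8.15% lower) and 10.6% at 96 h (3.62% lower). Foxp1, a forkhead factor of the same family that keeps T cells quiescent, fell by 0.54 in TN mix at 18 h (limma adjusted p = 0.0135) and by 0.54 at 96 h (adjusted p = 0.0167), and the other 9 were not called at either time. The call at 18 h was lost without TN mix replicate 1 (adjusted p = 0.0671), and that at 96 h without TN alone replicate 1 or 3 or TN mix replicate 2 (adjusted p up to 0.0813). Of the CD4 lineage list, 9 of 10 measured, 1 was called lower in TN mix at 18 h and 3 at 96 h, and 0 higher. Over all genes 8.15% and 3.62% were called lower. Bcl6, a factor of follicular helper and memory precursor T cells, fell by 1.13 at 18 h and by 0.40 at 96 h in TN mix, and Tnfsf8, the CD30 ligand, by 0.72 at 96 h. Without TN alone replicate 3 neither was called at 96 h, and Bcl6 was also not called there without TN alone replicate 2 or TN mix replicate 1 or 3 (adjusted p up to 0.0676 for Tnfsf8 and 0.142 for Bcl6). Cd4 was 6.48 in TN mix at 96 h and 6.36 in TN alone, and was not called (0.12, adjusted p = 0.655).

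The nearest gene on each side, other than the members, was not called in TN mix against TN alone at 96 h, where 10.6% of all genes were called. Genes further along from Foxp3 were called in part. On chromosome 9, Mre11a, next to Gpr83, was at -0.02 in TN mix against TN alone at 96 h (limma adjusted p = 0.942), and Panx1, next to Izumo1r, at -0.09 (adjusted p = 0.645). At 0 h, where Izumo1r and Gpr83 were lower in TMem than in TN, Mre11a was higher (0.63, adjusted p = 2.2e-06) and Panx1 was at 0.09 (adjusted p = 0.497). Beside Foxp3 on the X chromosome, Ppp1r3f was at -0.25 (adjusted p = 0.125) and Ccdc22 at -0.13 (adjusted p = 0.409) in TN mix against TN alone at 96 h, and both were lower in TMem than in TN at 0 h (-0.90 and -0.44). Further along, the third gene on the Ccdc22 side, Syp, which codes for the synaptic vesicle protein synaptophysin, had the same directions as Foxp3, lower in TN mix at 96 h (-0.39, adjusted p = 0.00736) and higher in TMem at 0 h (0.26, adjusted p = 0.0388). Cacna1f, the second gene on that side, was called in neither comparison. On the Ppp1r3f side, the second gene, Usp27x, was higher in TN mix at 96 h (0.33, adjusted p = 0.0307). It was also higher in TMem at 0 h (0.42, adjusted p = 0.00134). The third, Clcn5, a chloride transporter, was higher in TN mix at 96 h (0.86, adjusted p = 2.19e-05). At 0 h Clcn5 was higher in TMem, at 7.86 against 6.36 in TN (adjusted p = 1.58e-10).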

How the data were processed

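The 30 arrays measured RNA of sorted mouse CD8+ T cells in 10 groups of 3. The table deposited by the authors holds log2 values of probe sets. Per the submitters' processing notes the tools were RMA and Partek, without version or role. RMA normalization makes array distributions alike and compresses low values. Values ran from 2.05 to 14.2 and array medians from 6.76 to 6.94; they were used as deposited. Detection calls and scan dates were not used here, and the number of arrays limits the precision.

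Of 35556 rows, 21789 had 1 gene symbol, 1621 had several and were left out, and 12146 were unnamed here. By gene number 21698 rows took RefSeq (GRCm38.p6) names and 91 kept theirs. The row with the highest mean stood for each of 999 genes with more than 1, which left 19938 genes without a filter. All 30 arrays entered 1 limma 3.58.1 model (lmFit, eBayes; R 4.3.3) of group means, which left 20 residual degrees of freedom, and p-values were adjusted over all genes by Benjamini-Hochberg; 2-sided calls were made at 0.05. Each of the 10 tested and 6 described comparisons was a contrast of this fit, which was checked on simulated data.

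The members and the gene lists were chosen with earlier results of these data known, so no list is independent evidence. Of 123 list genes 116 were analysed here, and counts of list members are over these. Named were the members, the 8 genes most like each, up to 4 called genes of a list per comparison with the smallest adjusted p (6 where TN alone or TN mix at 96 h entered), and Il2ra, Ctla4, Ikzf2, Tnfrsf18 and Cd4; marker genes and neighbours are named beside the results they touch. Alternatives changed the normalization, array weights, variance prior, arrays in the fit, replicate block, low-value filter, rows and single arrays. Same-numbered arrays deviated together (correlations over 0.1 in all 3 pairs) only between TN mix and TN alone at 96 h, at 0.137 to 0.489.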

Additional observations from a re-analysis of the deposited data

How the results depend on the processing

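Of 809 alternative values of the members, 759 kept their direction, their side of the threshold or, where there was no test, their size. With 3 arrays a group, small differences were not detectable. The replicate block in the fit of all arrays changed no call of a member; for Izumo1r in TN mix against TN alone at 18 h it gave -0.40 (adjusted p = 0.023), and the paired TN mix and TN alone arrays at 96 h gave 2014 called genes with it, against 2117 without, but 2785 with it and 1765 without where only those groups entered the fit. The filter on low values left no Gpr83. The cause of the changes was not tested, except that fits of only the groups compared hold fewer arrays. Same-numbered arrays of the other comparisons shared only a number (correlations from -0.338 to 0.344).

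Izumo1r in TN mix against TN alone at 18 h lost its call with the groups compared alone and the replicate block (-0.40, limma adjusted p = 0.0603). Leaving out single arrays ended that call for 3 of them (-0.48 to -0.36 over all left out). With the groups compared alone, Foxp3 in TMem alone against 0 h lost its call at 18 h (-0.87, adjusted p = 0.0796) and 96 h (-1.01, adjusted p = 0.0933). Foxp3 in TMem against TN at 0 h lost its call with array weights (0.10) and with the groups compared alone (0.76). Leaving out single arrays ended that call for 1 of them (0.23 to 1.10 over all left out). Foxp3 in TN alone at 18 h against 0 h gained a call with the groups compared alone (0.40, limma adjusted p = 0.0423) and with the replicate block besides (0.40, adjusted p = 0.0488). Leaving out single arrays gave that call for 1 of them (0.29 to 0.52 over all left out). Foxp3 in TMem alone against TN alone at 18 h gained a call with array weights (-0.51), the groups compared alone (-0.51) and the replicate block besides (-0.51). Leaving out single arrays gave it for 1 of them (-0.53 to -0.49 over all left out). In the mix groups Foxp3 gained a call with the same settings (-0.37, -0.40 and -0.40) and for 1 array left out (-0.43 to -0.36 over all left out). The Izumo1r difference of mixing effects was called with array weights (-0.47) and with the genes above the median mean (-0.52). It was also called with the groups compared alone (-0.52) and with the replicate block besides (-0.52). Leaving out single arrays gave that call for 2 of them (-0.61 to -0.44 over all left out).

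Signs changed only where no call was made or no test applied. With quantile normalization these were Foxp3 in TMem mix against TMem alone at 18 h (-0.018), Foxp3 in the difference of mixing effects (0.0075), Foxp3 in TN mix at 96 h against 18 h (-0.027) and Izumo1r in TMem at 18 h against 0 h (0.064, also 0.014 with arrays centred on their medians, 0.047 with array weights and -0.096 to 0.045 without single arrays). Without single arrays, Gpr83 ranged from -0.018 to 0.15 in TMem mix against TMem alone at 18 h, from -0.039 to 0.16 at 96 h, from -0.078 to 0.11 in TMem at 18 h against 0 h and from -0.023 to 0.19 in TN alone at 96 h against 18 h, and Foxp3 from -0.0053 to 0.076 in TMem mix against TMem alone at 96 h. Described values that moved by more than 1 SD were, with quantile normalization, Foxp3 in TN mix against TN alone at 96 h (-1.58), Foxp3 in TN alone at 96 h against 18 h (1.54) and Gpr83 in TN mix at 96 h against 18 h (-2.39), and, with array weights, Izumo1r in TN mix against TN alone at 96 h (-1.49), Foxp3 in TN alone at 96 h against 0 h (1.78), Izumo1r in TN mix at 96 h against 18 h (-1.19) and Izumo1r in TMem mix against TN mix at 96 h (-0.54).

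Counts over all genes moved by more than 1.5 times with array weights, to 4853 from 2881 in TN mix against TN alone at 18 h, to 6343 from 2117 at 96 h, and to 906 from 223 in TMem mix against TMem alone at 96 h. With the groups compared alone and the replicate block, 1912 genes were called in TN mix at 18 h and 118 in TMem mix at 96 h. The share of higher genes among those called was 43.6% in TN mix at 18 h and 54.3% with arrays centred on their medians, and 65.9% at 96 h and 51.5% with quantile normalization. With array weights 14 genes of the regulatory T cell list were called in TN mix at 18 h, and 16 regulators of Foxp3 at 96 h. Of the 8 genes most like each member, over group means 4 stayed for Foxp3, 3 for Izumo1r and 4 for Gpr83, and by Spearman correlation 2, 5 and 1.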
